A study of Rattus norvegicus with 19 samples.

Results

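Crem, Atf3, Per1, Nfil3, Gadd45b, Gadd45g, Btg2, Ier2, Ier5 and Maff are early response genes known as CREB targets or as stress and growth arrest genes, and they were chosen by name. The choice was made with earlier results of these data known, so counts of these genes called, beside those of all genes, are descriptive. All 10 were present among the 17715 gene symbols of the data, and they were paired with 338 of 27538 transcriptionally active putative enhancers (TAPEs), giving 378 of 388605 TAPE-gene pairs. A TAPE is a stretch of open chromatin away from genes with RNA from both strands, and each was paired with every gene whose start lay within 1 Mb of its centre. The RNA was measured by total RNA-seq in primary neuron cultures from Sprague-Dawley rats at embryonic day 18, taken from cortex, hippocampus or striatum. Cultures were grown for 11 days before a 1 h exposure to vehicle or to KCl, which depolarises neurons. The 19 libraries formed 6 groups with 3 libraries each, apart from 4 for striatum vehicle, and no group carried a transgene or deletion. The study's supplementary methods list the striatal numbers the other way round, with the additional library under KCl, and the titles and treatment labels, which name the same treatment for each library, were followed. For KCl the sample labels give 25 mM whereas the series text gives 10 mM, and the values could not settle which was used. These cultures hold neurons and glia, so the values are averages over cell types. In such bulk samples, fewer cells of a type and less RNA per cell cannot be told apart.

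CREB is a transcription factor that is phosphorylated when calcium or cAMP rises in a neuron, and it binds the cAMP response element (CRE), whose full form is the palindrome TGACGTCA. Its targets include genes that are transcribed within minutes without new protein synthesis, and among these are Crem, Per1, Nfil3, Btg2 and the Gadd45 genes. Several of the encoded proteins act back on transcription. Crem, through an internal promoter, gives the repressor ICER, which competes for CREs. Other members are best known from cells under stress or leaving the cell cycle, and the same genes are induced in depolarised neurons.

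Of the 10 genes, 9 had at least 1 promoter in RefSeq (GRCr8 assembly, 250 bases before to 50 after each start), with 11 promoters in all. The full CRE, TGACGTCA, was found in 5 promoters of 4 genes, and in 1.83% of the 33469 promoters of that length in the table. The shorter TGACG, read on both strands and contained in the full element, was in 8 promoters of 6 genes, which added Nfil3 and Gadd45b, and in 21.2% of all promoters. A match describes letters and is not evidence of binding. Crem start 3 held a further full CRE after the start, at base 40 of the transcript. The 60 bases around the full CRE before the start of each of the 5 promoters are shown because it is the sequence feature that they share, with the CRE in capitals:
Crem start 2, chr17:58984715-58984774, + strand, CRE 56 bases before the start: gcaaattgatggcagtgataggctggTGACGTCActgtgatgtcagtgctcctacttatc
Crem start 3, chr17:58985429-58985488, + strand, CRE 35 bases before the start: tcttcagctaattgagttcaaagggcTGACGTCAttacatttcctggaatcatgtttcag
Btg2, chr13:48087858-48087917, - strand, CRE 201 bases before the start: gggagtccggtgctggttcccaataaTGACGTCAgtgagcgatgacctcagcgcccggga
Ier2, chr19:40399281-40399340, + strand, CRE 66 bases before the start: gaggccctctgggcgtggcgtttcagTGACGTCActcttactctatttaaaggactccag
Maff, chr7:112792710-112792769, + strand, CRE 51 bases before the start: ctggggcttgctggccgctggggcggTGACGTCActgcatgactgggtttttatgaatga
The CRE lay within 66 bases of the start in 4 of these promoters and farther away in Btg2. These coordinates belong to GRCr8 and are not those of the deposited table, which uses Rn6 and gives every position below.

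Library totals ran from 46.4 to 72.5 M reads. The labels of cortex vehicle replicate 3 disagree, as the title names cortex and the tissue field striatum, and the title was followed. In that library Neurod6, a transcription factor of cortical and hippocampal excitatory neurons, stood at 86.6 RPM (reads per 1 M library reads), against at least 85.8 in the other cortex libraries and at most 0.129 in striatum, and Ppp1r1b, a phosphatase inhibitor abundant in striatal projection neurons, stood at 4.77, against at least 108 in striatum. Markers of non-neuronal cells differed between regions and were not called for KCl. The summed astrocyte markers with solved reads (2 of 4) were 126 to 163 RPM in cortex, 162 to 187 in hippocampus and 13.7 to 19.1 in striatum. The 5 oligodendrocyte lineage markers summed to 434 to 454, 330 to 398 and 151 to 180, the 2 of 4 microglial markers to at most 0.625, and Pdgfrb, the 1 of 3 endothelial and mural markers that could be solved, to at most 12.1. Of the 9 non-neuronal markers tested, 0 passed limma in any region, with 2, 1 and 1 at an unadjusted p under 0.05 in cortex, hippocampus and striatum. The part of these cell types in the regional differences described next was not tested.

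All 10 genes responded to KCl. Gene levels are given as RPM without correction for gene length, so they are compared between libraries and not between genes. With treatment labels exchanged within each region, an exact permutation test passed for 10 of 10 genes, against 23.5% of the 15247 genes with a profile, and the largest adjusted p of the 10 was 0.0038. Within regions, limma voom called 9 of 10 higher in cortex, against 4.35% of all 12849 genes tested. In hippocampus 10 of 10 were called higher, against 4.35% of all genes, and in striatum 10 of 10, against 7.27%. All fitted changes of the 10 genes were above 0, whereas 0.63% of all genes were called lower in cortex, 7.6% in hippocampus and 19% in striatum. In the order cortex, hippocampus and striatum, the 10 genes had median log2 changes of 2.76, 1.86 and 1.73, beside -0.04, -0.04 and -0.06 for all genes tested.

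**Figure D1:**
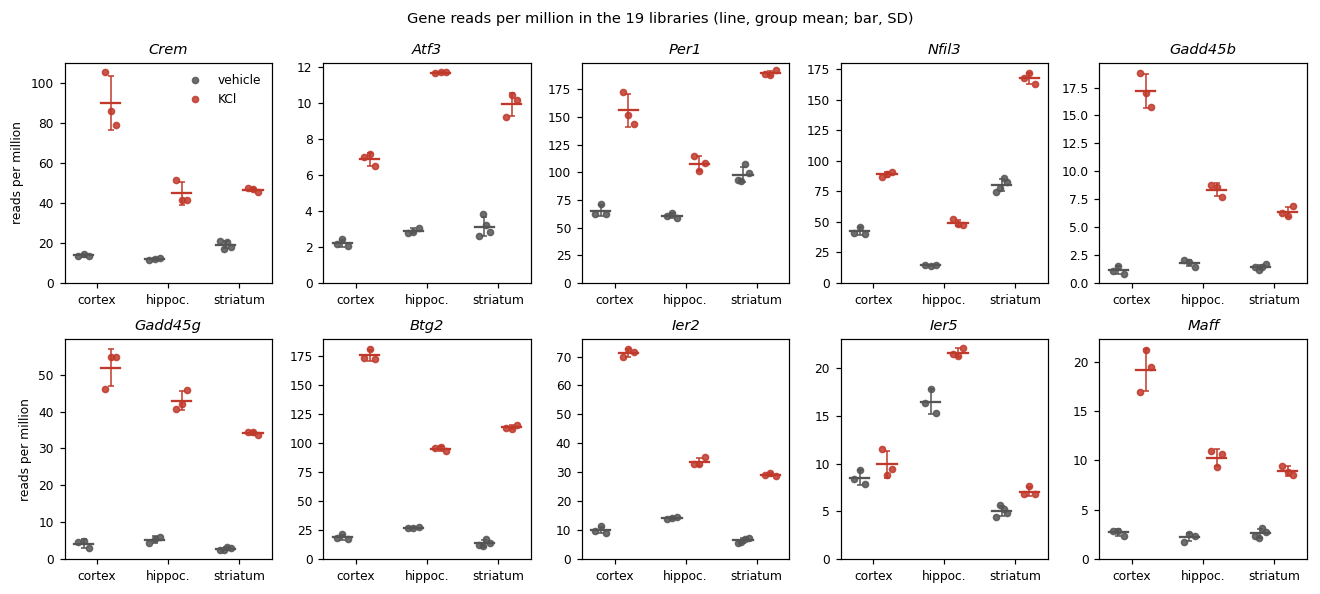
RPM of each of the 10 genes (vertical axis, from 0) in the 19 libraries, by region and treatment. Points are libraries, lines group means and bars SD; every KCl point lies above every vehicle point of its region except for Ier5 in cortex.

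The growth arrest and DNA damage genes Gadd45b and Gadd45g, whose products bind stress kinases and have been linked to DNA demethylation, had the largest fitted rises of the 10, Gadd45b in cortex and Gadd45g in the other regions. Gadd45b lies on chromosome 7 from 11646269 to 11648322 (- strand, Rn6). It was at 1.11, 1.52 and 0.817 RPM in the cortex vehicle libraries and at 18.8, 17 and 15.7 after KCl. In hippocampus it was at 2.05, 1.84 and 1.47 under vehicle and at 8.73, 8.61 and 7.66 after KCl. Striatum gave 1.46, 1.21, 1.43 and 1.69 under vehicle and 6.29, 6.01 and 6.88 after KCl. The KCl libraries lay far above the vehicle libraries in each region, and those of cortex lay above those of the other 2 regions. The fitted change was 15.1-fold in cortex (log2 3.92 ± 0.21, SE, n = 3 against 3), 4.67-fold in hippocampus and 4.38-fold in striatum (n = 4 against 3). Cortex differed from hippocampus by 1.69 on the log2 scale (limma, adjusted p = 0.000108) and from striatum by 1.78 (limma, adjusted p = 5.40e-05), whereas hippocampus and striatum differed by 0.09 ± 0.24.

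Gadd45g, on chromosome 17 from 13391467 to 13393243 (- strand), was at 4.76, 5.01 and 2.91 in cortex vehicle libraries and at 46.1, 54.9 and 54.7 after KCl. Hippocampus went from 4.28, 5.58 and 5.96 to 40.8, 42.2 and 45.9. In striatum, vehicle libraries held 2.52, 2.5, 3.28 and 2.88, and KCl libraries 34.4, 34.5 and 33.7. The lowest KCl library, at 33.7, thus stood far above the highest vehicle library, at 5.96. The fold was 12.6 (cortex), 8.22 (hippocampus) and 12.2 (striatum), and the difference between regions was not called (limma F-test of the interaction, adjusted p = 0.1). It passed when cortex KCl replicate 1 (adjusted p = 0.0204) or hippocampus vehicle replicate 1 (0.0344) was left out.

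Btg2, an antiproliferative protein that acts on mRNA deadenylation, is on chromosome 13 from 50913180 to 50916982 (- strand). Its levels were 18.3, 21.3 and 17 in cortex vehicle libraries and 173, 181 and 172 after KCl. Hippocampus vehicle libraries were at 26.8, 26.6 and 27.4 and the KCl libraries at 95.6, 96.7 and 92.6. In striatum the values were 11.7, 11.6, 17.7 and 13.6 under vehicle and 113, 112 and 116 after KCl. Hippocampus thus had the highest vehicle level and the lowest KCl level. The fold was 9.31 in cortex and 8.40 in striatum, and 3.53 in hippocampus. Cortex minus hippocampus was 1.40 for the log2 effect (limma adjusted p = 2.07e-09) and hippocampus minus striatum was -1.25 (2.73e-08), while cortex minus striatum was 0.15 ± 0.11.

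Ier2, a nuclear protein of early response genes on chromosome 19 from 25774143 to 25775659 (- strand), followed a similar order. Cortex went from 9.69, 11.3 and 9.18 to 69.9, 72.6 and 71.5 RPM. Hippocampus went from 13.9, 14.4 and 14.6 to 32.8, 32.9 and 35.2. Striatum went from 5.67, 6.04, 7.02 and 7.45 to 29.1, 29.7 and 28.8. The cortical KCl level was thus above that of the other regions, while hippocampus was highest under vehicle. The fold was 7.10 in cortex, 4.47 in striatum and 2.35 in hippocampus, and all 3 pairs of regions differed (log2 1.60, 0.67 and -0.93 for cortex minus hippocampus, cortex minus striatum and hippocampus minus striatum, with limma adjusted p of 3.22e-11, 0.000285 and 3.16e-06).

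Ier5, a regulator of heat shock factor and of a protein phosphatase, behaved unlike Ier2. It lies on chromosome 13 from 72742210 to 72744303 (- strand). Under vehicle it was at 8.37, 9.35 and 7.81 in cortex, and after KCl at 11.5, 8.78 and 9.40. In hippocampus it was at 16.3, 17.8 and 15.3 under vehicle and at 21.5, 21.2 and 22.1 after KCl. Striatum gave 4.42, 5.64, 5.28 and 4.85 under vehicle and 6.78, 7.60 and 6.77 after KCl. The groups overlapped in cortex and were apart in hippocampus and striatum, and the regions lay farther apart than the treatments. The change was 0.19 ± 0.12 in cortex (log2, limma adjusted p = 0.470), 0.39 ± 0.07 in hippocampus (0.00133) and 0.49 ± 0.11 in striatum (0.000765), and the difference between regions was not called (adjusted p = 0.560). Its vehicle level was highest in hippocampus, with log2 differences of -0.95 for cortex minus hippocampus (limma adjusted p = 1.48e-09) and 1.71 for hippocampus minus striatum (5.02e-14).

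Among the basic leucine zipper factors, Crem, on chromosome 17 from 57031766 to 57090888 (+ strand), responded in a graded way. The cortex libraries went from 13.6, 14.5 and 13.4 RPM under vehicle to 105, 86.3 and 79.0 after KCl. Those of hippocampus went from 11.6, 12 and 12.3 to 51.6, 41.5 and 41.7. Those of striatum went from 20.9, 17.2, 20.7 and 18.2 to 47.5, 47.0 and 45.8. Hippocampal and striatal KCl levels overlapped, and the striatal vehicle level was the highest of the 3. The fold was 6.43, 3.74 and 2.43 in cortex, hippocampus and striatum, and each pair of regions differed (log2 0.78, 1.40 and 0.62 for cortex minus hippocampus, cortex minus striatum and hippocampus minus striatum, with limma adjusted p of 0.00324, 2.26e-07 and 0.0237). The reads were counted over the gene, so transcripts from its different starts were not told apart.

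Nfil3, a repressor that binds the same sites as the clock factors of the PAR family, is on chromosome 17 from 12261102 to 12276315 (+ strand). In cortex its libraries went from 41.1, 46.0 and 40.5 to 87.0, 89.1 and 90.6. In hippocampus they went from 14.8, 14.3 and 14.5 to 52.1, 48.2 and 47.5. In striatum they went from 74.8, 77.4, 85.8 and 82.7 to 168, 172 and 163. Nfil3 was the member with the widest difference between resting regions, with log2 vehicle levels of hippocampus minus striatum at -2.46 (limma adjusted p = 5.90e-21) and of cortex minus hippocampus at 1.55 (1.21e-15). Its fold was 3.38 in hippocampus and 2.09 in both cortex and striatum, so hippocampus, which had the smallest fold for Btg2 and Ier2, had the largest for Nfil3. Its log2 effect differed by -0.69 for cortex minus hippocampus (limma adjusted p = 1.87e-05) and by 0.69 for hippocampus minus striatum (7.84e-06).

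Atf3, a stress-induced member of the ATF/CREB family on chromosome 13 from 109817728 to 109849632 (- strand), stood between 2.05 and 3.83 RPM in the 10 vehicle libraries. After KCl it was at 6.48 to 7.18 in cortex, 11.7 in all 3 hippocampus libraries and 9.21 to 10.4 in striatum. The fold was 3.09, 4.02 and 3.22, and the difference between regions was not called (limma F-test, adjusted p = 0.468). Maff, a small MAF protein that lacks a transactivation domain and is on chromosome 7 from 120580743 to 120592095 (+ strand), was at 1.75 to 3.19 under vehicle in all regions. After KCl it was at 16.9, 21.2 and 19.4 in cortex, 10.9, 9.31 and 10.6 in hippocampus and 9.48, 8.79 and 8.57 in striatum. Its fold was 7.14, 4.70 and 3.43, and cortex differed from striatum (log2 1.06 ± 0.20, limma adjusted p = 0.00188). Per1, a core repressor of the circadian clock on chromosome 10 from 55687050 to 55695994 (+ strand), went from 62.5 to 71.1 under vehicle to 144 to 173 after KCl in cortex, from 59.0 to 63.7 to 101 to 115 in hippocampus, and from 92.1 to 107 to 188 to 192 in striatum. Its fold, 2.37, 1.77 and 1.94, was the smallest of the 10 genes after Ier5 in hippocampus and striatum. Cortex and hippocampus differed by 0.42 ± 0.09 on the log2 scale (limma adjusted p = 0.0102).

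The test of a difference in KCl effect among the 3 regions was passed by 7 of 10 genes (Crem, Per1, Nfil3, Gadd45b, Btg2, Ier2 and Maff), against 3.77% of all genes. By pairs, 6 of 10 differed between cortex and hippocampus, against 1.96% of all genes, 4 of 10 between cortex and striatum, against 2.17%, and 4 of 10 between hippocampus and striatum, against 1.81%. In every pair of regions that involved cortex, each member that was called had the larger effect in cortex, apart from Nfil3. The same regions also differed at rest. Vehicle levels differed for 6 of 10 genes between cortex and hippocampus, 8 of 10 between cortex and striatum and 7 of 10 between hippocampus and striatum, where the shares of all genes were 51.5%, 66.7% and 72.1%. The call for Per1 was lost without cortex vehicle replicate 1 (adjusted p = 0.0646). Without cortex vehicle replicate 3, whose labels disagree, the calls were 9 of 10 in cortex and 7 of 10 for the difference between regions, as with it.

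**Figure D2:**
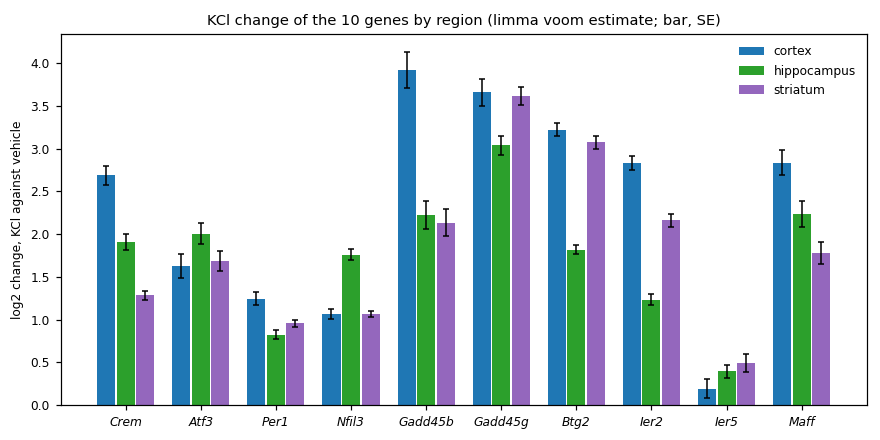
Fitted log2 change of each gene after KCl (vertical axis, from 0) in cortex, hippocampus and striatum, from limma voom; bars are SE. Gadd45b in cortex has the tallest bar (3.92), Nfil3 is the member with a taller bar in hippocampus than in either other region beyond the test threshold, and Ier5 has the lowest bars (0.19 to 0.49).

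Relatives of the 10 genes were examined as lists, whose counts stand beside 4.35%, 4.35% and 7.27% of all genes called higher and 0.63%, 7.6% and 19% called lower in cortex, hippocampus and striatum. Of 13 CREB partners and relatives tested, Atf4, a translationally controlled stress factor, rose in all 3 regions (log2 0.39 ± 0.06, 0.34 ± 0.04 and 0.33 ± 0.03), and no other was called higher. Hippocampus had 5 that were called lower and striatum 6, and Crtc3, a calcium-regulated coactivator of CREB, fell by 0.50 in hippocampus and by 0.38 in striatum. Creb1 itself changed by -0.26 ± 0.09 in cortex (adjusted p = 0.15), -0.20 ± 0.08 in hippocampus (0.12) and -0.45 ± 0.06 in striatum (5.2e-07). Of 10 clock genes, Cry2, a partner of Per1 in repression, rose by 1.24 in cortex, 0.64 in hippocampus and 0.48 in striatum. Per2, Cry1 and Nr1d1 were also called higher in cortex, and the difference between regions was called for Nr1d1 (limma F-test, adjusted p = 0.000259) and not for Per2 (0.224) or Cry1 (0.0742). Arntl was called lower in hippocampus and striatum and Hlf in striatum. Among 11 stress and growth arrest relatives, 4, 3 and 8 were called higher in cortex, hippocampus and striatum. Tob1, of the same protein family as Btg2, rose by 1.61, 0.99 and 0.58, and Btg1 by 0.60, 0.91 and 0.61. Gadd45a rose in striatum (0.81 ± 0.08) and changed by 0.01 ± 0.16 in cortex and -0.15 ± 0.11 in hippocampus. Of 7 MAF family genes and partners, 1, 2 and 3 were called higher, and Mafk rose in all regions (0.70, 0.62 and 0.39). Ier3 and Ier5l did not pass limma in any region, also at an unadjusted p under 0.05. For scale, 7 of 7 immediate early genes kept as a reference (Fos, Fosb, Junb, Egr1, Nr4a1, Arc and Npas4) rose in each region, with median log2 changes of 4.15, 3.52 and 3.45.

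The genes whose levels most resembled each member over the 19 libraries were ranked. By Pearson r, Crem was closest to Slc1a4 (0.99), Cry2 and Dusp1 (0.98 each), Per1 to Sik1 (0.99), Emd and Nr4a1, and Atf3 to Gem (0.98), Jun and Btbd8. Gadd45b was closest to Cry2, Dusp1 (0.99 each) and Coq10b, and Gadd45g to Erf (0.98), Csrnp1 and Tent5b. Btg2 was closest to Cwc25 (0.98), Nr4a2 and Csrnp1, and Nfil3 to Klf5 (0.98), Slc38a2 and Zdbf2. Ier2 and Maff were each among the other's closest genes (0.98), and Dusp1 and Gadd45b were among the closest of both. Ier5 was closest to Ncald, Sdcbp and Adra2a (0.99 each). The 19 libraries share regions and treatments, so these values describe shared patterns over 6 groups.

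RNA from the TAPEs around the 10 genes was sparse. A TAPE of the set held a median of 16 reads summed over all 19 libraries (2 to 1512), and 190 of 338 held under 20. The deposited Pearson r between TAPE and gene over all libraries was above 0.5 for 12 of 378 pairs (3.17%), beside 5.30% of all pairs, and its median was -0.04. Only 33 of the 338 TAPEs had a mean level of at least 0.05 reads per kilobase of TAPE and per 1 M library reads (CPKM), the threshold for a test on log2(CPKM + 0.05), and Nfil3 and Gadd45g shared the 1 TAPE that each had above it. In limma, 0 of 33 TAPEs were called for KCl in cortex, against 0.321% of the 1870 tested, and 0 in hippocampus, against 0.0535%. The numbers at an unadjusted p under 0.05 were 5 and 2, and limma voom on the recovered reads also called 0 in each. In striatum 1 of 33 was called, against 1.23%. Over the 3 regions together 6 of 33 were called, against 6.84% of all TAPEs. Without the filter on level, with all 338 TAPEs among 27538 tested, 0 were called in striatum and 0 over the regions, and the 6 had adjusted p of 0.0942 to 0.229 over the regions in limma. The interaction of KCl with region was called for 0 of 33, against 0.0535%, with 1 at an unadjusted p under 0.05 and 0 by voom, and this depth limits what could be seen. TAPE levels differed between regions for 15 of 33, against 51.7% of all TAPEs tested.

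The TAPE called in striatum lies 326230 bp upstream of Ier2, at 19:26100689-26103090. Its CPKM in striatum was 0.132, 0.126, 0.0934 and 0.0719 under vehicle and 0.299, 0.246 and 0.415 after KCl. In cortex it was 0.0801, 0.0919 and 0.0989 under vehicle and 0.117, 0.168 and 0.0852 after KCl, and in hippocampus 0.0515, 0.0932 and 0.121 and then 0.131, 0.147 and 0.166. The treatments were apart in striatum and hippocampus and overlapped in cortex. The log2 change was 1.24 ± 0.25 in striatum (limma adjusted p = 0.0305) and 0.71 ± 0.17 over the 3 regions (0.00857). In striatum alone the call was lost when any 1 of the 7 libraries was left out (adjusted p of 0.0677 to 0.176). The r of this TAPE with Ier2 was 0.18 over all libraries, and 0.56, 0.83 and 0.89 within cortex, hippocampus and striatum.

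The other 5 called TAPEs fell with KCl, while the member gene each was paired with rose. Over all 1870 TAPEs tested, 97 were called lower over the regions and 31 higher. A TAPE was paired with every gene in reach, so these pairs do not show which gene it acts on. Near Per1 the TAPE 616033 bp downstream (10:56302113-56304052) went in striatum from 0.154, 0.104, 0.0623 and 0.134 to 0.0487, 0.0380 and 0, and its change over the regions was -0.82 ± 0.22 (limma adjusted p = 0.0222; 0.0541 without cortex vehicle replicate 3). Near Ier5 the TAPE 113250 bp upstream (13:72856835-72858270) went in hippocampus from 0.148, 0.132 and 0.126 to 0.0244, 0 and 0.0232, and changed by -0.83 ± 0.21 over the regions (0.0129). With limma voom on the recovered reads this call was lost (adjusted p = 0.0943). A TAPE 588600 bp upstream of Gadd45b (7:12236306-12237538) was mostly hippocampal, at 0.301, 0.321 and 0.235 there under vehicle and at 0.326, 0.1 and 0.122 after KCl, and changed by -0.77 ± 0.19 (0.00916). These are small numbers of reads, from 0 to 29 in a library. A deeper TAPE 499875 bp downstream of Gadd45b (7:11146953-11149940) had 0.489, 0.748, 0.658 and 0.538 in striatum vehicle libraries and 0.284, 0.5 and 0.391 after KCl, with a change of -0.44 ± 0.12 (0.0265). The TAPE 514654 bp downstream of Maff (7:121094209-121096585) had 0.104, 0.0848, 0.0290 and 0.109 and then 0.0159, 0.0233 and 0.0161 in striatum, with a change of -0.67 ± 0.19 (0.0276). TAPEs as a whole also fell, with a median log2 change of -0.13 over the 1870 tested and of -0.18 over the 33. When each library was centred on its median, the adjusted p rose to 0.201 for the TAPE 499875 bp downstream of Gadd45b, to 0.113 for Maff and to 0.0645 for Per1. Single libraries also decided these 3 calls. The adjusted p without 1 library was 0.0503, 0.0507 and 0.0702 for the TAPE 499875 bp downstream of Gadd45b (hippocampus vehicle replicate 1, striatum vehicle replicate 4 and striatum KCl replicate 1). It was 0.0592, 0.0508 and 0.0518 for Maff (cortex KCl replicate 1, striatum vehicle replicate 8 and striatum KCl replicate 1), and 0.0522 and 0.0543 for Per1 (hippocampus KCl replicate 2 and striatum KCl replicate 7).

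**Figure D3:**
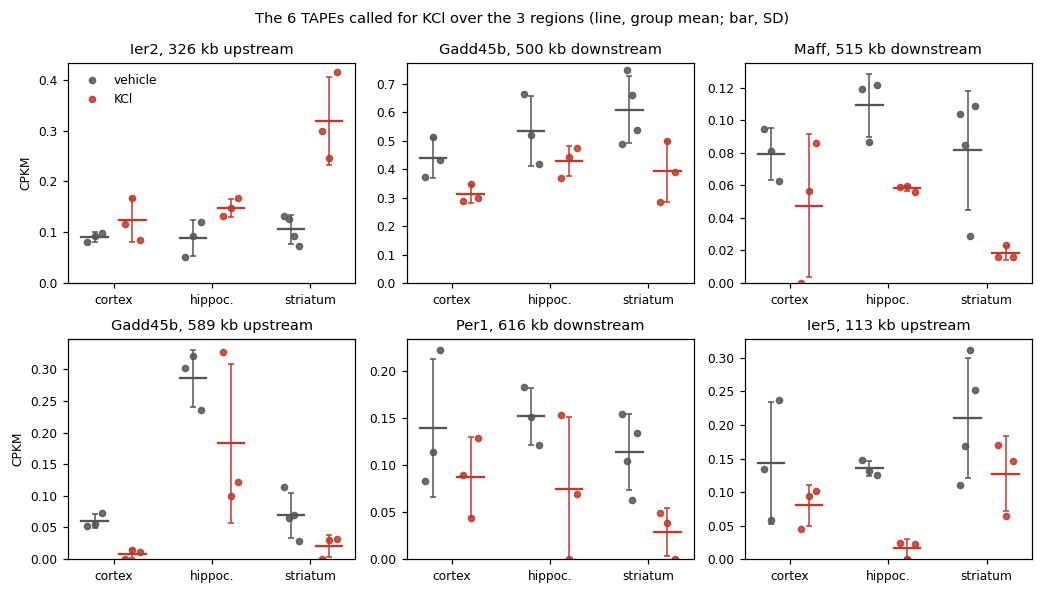
CPKM (vertical axis, from 0) of the 6 TAPEs called for KCl over the 3 regions, by region and treatment; points are libraries, lines group means and bars SD. The TAPE upstream of Ier2 has higher KCl means in each region and the other 5 have lower ones.

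The nearest tested TAPEs of Btg2, Crem, Atf3, Per1 and Maff were not called, nor was the 1 tested TAPE shared by Nfil3 and Gadd45g. That of Btg2, 13281 bp upstream at 13:50929088-50931438, was at 0.0599, 0.103, 0.0734 and 0.0808 in striatum vehicle libraries and at 0.0964, 0.188 and 0.228 after KCl, where the groups overlapped, and its change over the regions was 0.10 ± 0.22. Those of Crem (18552 bp upstream, 17:57012606-57013822), Atf3 (59405 bp upstream, 13:109907833-109910241), Per1 (65909 bp upstream, 10:55619462-55622820) and Maff (151150 bp upstream, 7:120428259-120430926) changed by 0.13 ± 0.25, 0.04 ± 0.18, -0.12 ± 0.19 and -0.16 ± 0.19. The tested TAPEs with the highest r of Crem (778052 bp downstream, 17:57808858-57810778, r of 0.44), Per1 (931532 bp upstream, 10:54754740-54756295) and Ier5 (600862 bp upstream, 13:73344507-73345822) changed by 0.10 ± 0.16, 0.16 ± 0.18 and -0.17 ± 0.27. The largest rise among these uncalled TAPEs was 759143 bp upstream of Gadd45b (7:12406358-12408572), at 0.0724, 0.118 and 0.121 in cortex vehicle libraries and 0.165, 0.205 and 0.224 after KCl. In hippocampus it had 0.136, 0.109 and 0.155 and then 0.126, 0.0796 and 0.158, and in striatum 0.191, 0.146, 0.296 and 0.101 and then 0.358, 0.258 and 0.441. The treatments were apart in cortex and overlapped in the other regions, and the change over the regions was 0.49 ± 0.18 (limma adjusted p = 0.0887). The TAPE shared by Nfil3 and Gadd45g (17:12514997-12516636) had 0.156, 0.109 and 0.127 in cortex under vehicle and 0.0788, 0.205 and 0.250 after KCl. In hippocampus it had 0.0216, 0.042 and 0 and then 0.032, 0.086 and 0.0406, and it held 0 reads in 6 of the 7 striatum libraries. Its change over the regions was 0.20 ± 0.19 (limma adjusted p = 0.574).

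Summing all TAPE reads within 1 Mb of a gene gave a depth at which the 10 loci could be compared. These sums and their tests were added after the data were seen. Near Nfil3 and Gadd45g, whose starts lie 1132 kb apart on chromosome 17 and which share 40 TAPEs, TAPE RNA rose with KCl. The 72 TAPEs of Nfil3 held 1.23, 1.39 and 1.80 RPM in cortex vehicle libraries and 1.96, 2.61 and 2.13 after KCl. They held 1.13, 0.930 and 1.09 and then 1.80, 2.05 and 1.80 in hippocampus, and 0.669, 0.745, 0.604 and 0.898 and then 1.17, 1.53 and 1.53 in striatum. Every KCl library thus stood above every vehicle library of its region.

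The 66 TAPEs of Gadd45g showed the same separation. Their sums were 1.25, 1.41 and 1.52 and then 2.2, 2.57 and 1.92 in cortex. In hippocampus they were 1.38, 1.27 and 1.49 under vehicle and 1.98, 2.08 and 2.13 after KCl, and in striatum 0.546, 0.604, 0.311 and 0.587 and then 0.812, 1.22 and 0.920. The log2 ratios of the means were 0.60, 0.84 and 0.95 for Nfil3 and 0.68, 0.58 and 0.94 for Gadd45g in cortex, hippocampus and striatum, beside -0.12, -0.17 and -0.18 for all TAPEs. Such a separation in all 3 regions was seen for 2 of the 10 genes and for 0.322% of the 17715 genes. In an exact permutation test within regions both had p = 7.14e-05, the smallest that 14000 arrangements can give, and an adjusted p of 0.00425 over all genes. That test called 3 of the 10 genes, against 19.2% of all genes, and 2 of 10 higher after KCl, against 2.03%. With the sums taken as shares of all TAPE reads, the 2 genes kept their calls (adjusted p = 0.00910). As the 2 genes share TAPEs, their sums are not independent of each other.

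The remaining call was for Maff, whose 31 TAPEs fell. They went from 1.56, 1.46 and 1.80 to 1.40, 0.992 and 0.965 in cortex, from 1.41, 1.45 and 1.30 to 1.31, 0.758 and 0.833 in hippocampus, and from 1.64, 1.31, 1.26 and 1.12 to 1.02, 0.940 and 0.690 in striatum. The treatments were apart in cortex and striatum and overlapped in hippocampus, with log2 ratios of -0.52, -0.52 and -0.59 (exact permutation adjusted p = 0.00864; 0.0531 as shares of all TAPE reads). Every KCl library was also below every vehicle library near Gadd45b and Btg2 in hippocampus and near Ier5 in hippocampus and striatum. That makes 1 of the 10 genes for cortex, 3 for hippocampus and 2 for striatum, where 13.2%, 20.6% and 19.7% of all genes were so separated. The sums near Crem, Atf3 and Ier2 overlapped in all regions, at permutation p of 0.772, 0.219 and 0.637, and those near Per1, Gadd45b, Btg2 and Ier5 had adjusted p of 0.0604, 0.0906, 0.138 and 0.0611.

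**Figure D4:**
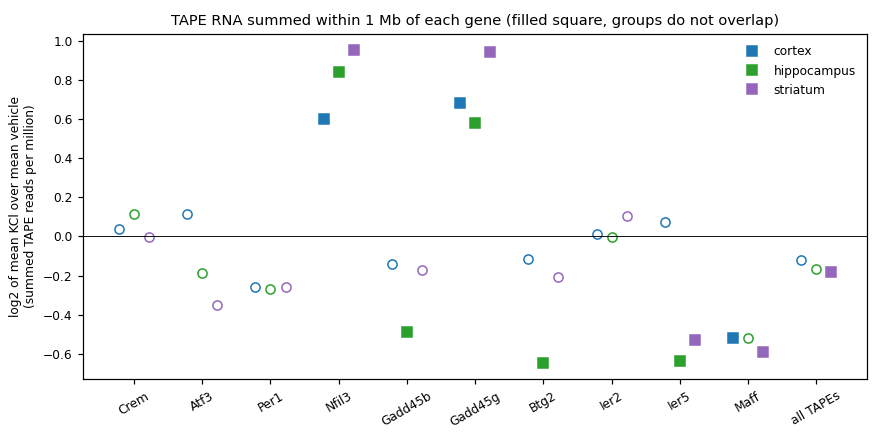
Log2 ratio of mean KCl to mean vehicle TAPE RPM (vertical axis), summed within 1 Mb of each gene and over all TAPEs, by region. Filled squares mark groups that do not overlap; Nfil3 and Gadd45g lie at 0.58 to 0.95 in all regions, and the other genes lie at or below 0.11.

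The TAPEs near Nfil3 and Gadd45g were also described by position. Nfil3 lies on the + strand and Gadd45g on the - strand, so the 40 shared TAPEs lie downstream of both. Their summed RNA was 1.66-fold higher after KCl in cortex, 1.80-fold in hippocampus and 2.26-fold in striatum, with no overlap between treatments. The TAPEs of Nfil3 alone (32) gave 1.24, 1.75 and 1.62-fold, without overlap in hippocampus, and those of Gadd45g alone (26) 1.47, 1.05 and 1.10-fold, without overlap in cortex. A stretch chosen after seeing the values, 300 to 650 kb downstream of the Gadd45g start with 21 TAPEs, went from 0.305 ± 0.15 to 0.911 ± 0.27 RPM in cortex and from 0.371 ± 0.03 to 0.873 ± 0.15 in hippocampus (SD, n = 3 each). In striatum it stood at 0.0825 ± 0.06 (n = 4) and 0.1 ± 0.06 (n = 3), and the treatments overlapped. The lowest striatum vehicle library held 0 there, so this depth limits what could be seen. The other 19 shared TAPEs, which lie outside that stretch, went from 0.280 ± 0.04 to 0.719 ± 0.20 in striatum and overlapped in cortex and hippocampus, at 1.05-fold and 1.35-fold. As the stretch was chosen on these values, the choice also set its contrast with the other shared TAPEs, and no test was made of either. Without the 5 deepest of the 98 TAPEs the sums still rose 1.5, 1.39 and 1.65-fold with no overlap. Of the genes between the pair, Auh rose in striatum (0.21 ± 0.04, limma adjusted p = 4.17e-05), and Syk and Diras2 were not called in any region.

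**Figure D5:**
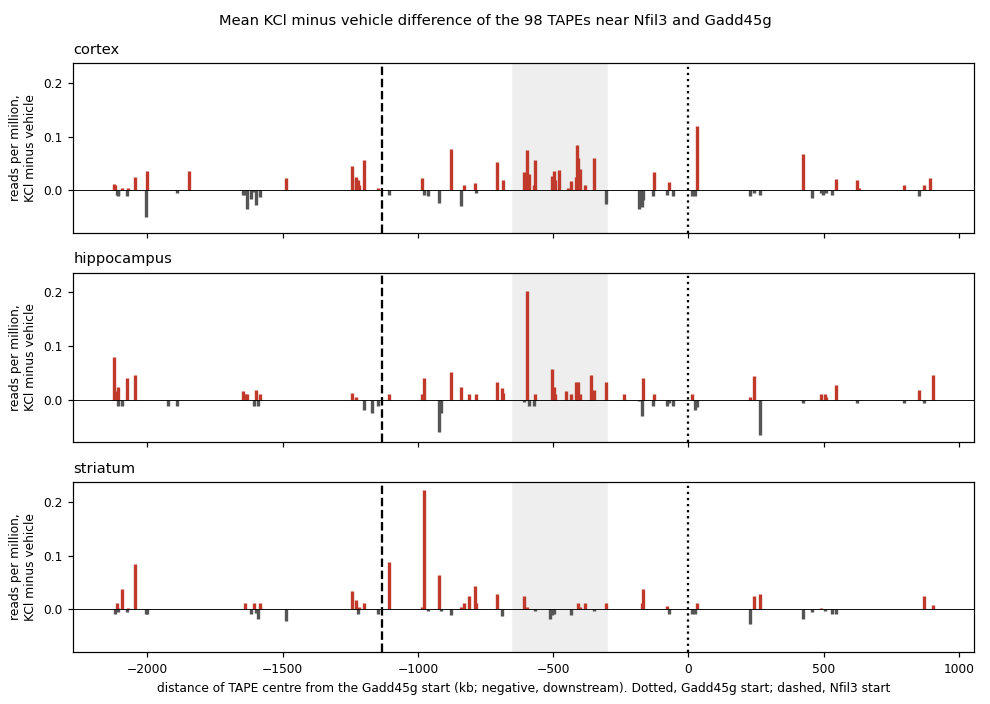
Mean KCl minus mean vehicle RPM (vertical axis) for each of the 98 TAPEs near Nfil3 and Gadd45g, by distance in kb from the Gadd45g start (dotted; negative is downstream) with the Nfil3 start dashed. Red bars rise, grey bars fall and the shaded stretch runs from 300 to 650 kb downstream, where the sum rose 2.98-fold in cortex, 2.35-fold in hippocampus and 1.21-fold in striatum.

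The same 2 genes held 10 of the 12 pairs with an r above 0.5, and none of the 12 TAPEs was deep enough to be tested. Both genes also had many TAPEs in reach. An r above 0.5 was held by 4 of the 72 pairs of Nfil3 and 6 of the 66 of Gadd45g, beside 5.30% of all pairs. The highest r, 0.81, was for a TAPE 153478 bp downstream of Nfil3 (17:12413437-12415723), which held 2, 2, 2 and 6 reads in striatum vehicle libraries, 10, 17 and 17 after KCl and at most 8 in any other library. A TAPE 24923 bp downstream of Nfil3 (17:12284993-12287056, r of 0.76) held 0, 2, 2 and 0 reads in striatum under vehicle and 6, 5 and 6 after KCl. Both were thus seen mainly in KCl-treated striatum, where the Nfil3 level was highest. For Gadd45g the highest r was 0.71, 408999 bp downstream (17:12983136-12985352), where cortex vehicle libraries held 0 reads each and KCl libraries 4, 2 and 4. The 6 TAPEs of Gadd45g with an r above 0.5 lay 348817 to 598419 bp downstream. The pairs of Ier2 (r of 0.62, 21 reads in all) and Crem (0.57, 3 reads in all) rest on very few reads.

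Near Ier5, some TAPEs had their highest level in striatum, where the gene was lowest. A run of 5 tested TAPEs 113250 to 128011 bp upstream of Ier5 (13:72856835-72872981, singled out after its values were seen) summed to 2.36, 2.12, 2.33 and 2.63 RPM in striatum vehicle libraries. The same sum was 0.401, 0.179 and 0.505 in cortex and 0.424, 0.465 and 0.435 in hippocampus. After KCl it was 2.08, 1.18 and 1.71 in striatum, 0.474, 0.353 and 0.468 in cortex and 0.350, 0.123 and 0.466 in hippocampus. Striatum thus stood above both other regions in every library, while Ier5 itself was lowest in striatum. The strongest of the 5 (13:72860818-72862246) had a CPKM of 0.570 ± 0.08 in striatum vehicle libraries (SD, n = 4). In vehicle libraries of cortex it had 0.0438 ± 0.04 and in those of hippocampus 0.0902 ± 0.04 (n = 3 per group). This TAPE was picked on these values, so no p-value is given for its difference between regions. Such differences were called for 51.7% of all TAPEs tested. The deposited r of the 5 TAPEs with Ier5 over all libraries, which includes the differences between regions, ran from -0.65 to -0.56. Within regions it ran from -0.79 to 0.85 in cortex, -0.93 to 0.53 in hippocampus and -0.91 to 0.23 in striatum. Over all libraries the highest r of the strongest TAPE was 0.93 with Xpr1, a phosphate exporter whose start lies 195343 bp away, followed by 0.91 with Acbd6. Within striatum these r were 0.33 and 0.29. These 5 TAPEs held most of the Ier5 sum in striatum, at 2.36 ± 0.21 under vehicle and 1.65 ± 0.45 after KCl, beside 0.518 ± 0.22 and 0.337 ± 0.11 for the other Ier5 TAPEs, whose treatments overlapped. Under vehicle those other TAPEs held 0.565 ± 0.12 in cortex and 0.646 ± 0.25 in hippocampus, so they were not highest in striatum.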

How the data were processed

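Total RNA-seq libraries of 19 cultures in 6 groups were used, grouped by sample title, and the labels and the study do not state for each library which culture or litter it came from, so p-values measure the spread between these libraries. The authors trimmed reads with Trim Galore 0.4.5, aligned them with STAR to Rn6 and used SAMtools 1.9 and FastQC, per the submitters' processing notes and the study's methods. They set TAPEs from open chromatin and merged RNA-seq and quantified them in SeqMonk. For TAPEs the authors deposited RPKM (called CPKM), reads per kilobase of TAPE and per 1 M library reads. For each pair the authors deposited a correlation score, Pearson's r of TAPE with gene CPKM. The deposited distances run from TAPE centre to gene start. The deposited side of each pair follows coordinates and not the strand of the gene in all 388605 pairs, so it was set here from the strand.

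Read numbers were recovered from CPKM, TAPE length and library totals, and 100% of values were whole within 0.001 read. Of the nonzero TAPE values, 73.8% were even read numbers, as when both mates of a fragment are counted. PCR reads without molecular identifiers are not independent molecules. Gene reads are not a column of the table. They were solved from each gene's correlations with the known TAPE profiles, as the smallest whole numbers in all 19 libraries, for 15145 of 17715 symbols (85.5%) and for 10 of 10 members, which lay within 0.000609 read of whole numbers. The true reads could be a common multiple, which leaves folds unchanged. It would change RPM levels and their sums over genes, the filter on reads and the p-values of limma voom. On simulated profiles 200 of 200 were recovered, compared after division by any common divisor, so this check does not cover the multiple.

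TAPEs whose CPKM averaged 0.05 or more were tested with limma 3.58.1 (R 4.3.3, lmFit and eBayes with trend) on log2(CPKM + 0.05), a scale that understates the change of low TAPEs. Genes with a mean of at least 10 reads were tested with limma voom on the solved reads, scaled by library size. Tests were two-sided with Benjamini-Hochberg adjustment over all features, called at 0.05. Exact permutation tests exchanged treatment labels within regions. Replicates of a group differed by more than counting noise (chi-square of 3.28 to 19.9 per degree of freedom), so none was a copy. The members and lists were chosen with earlier results of these data known, and the tests of gene interactions, of vehicle levels and of summed TAPE reads were added after the data were seen. All 10 genes are described, with, for each, the nearest tested TAPE, the tested TAPE of highest r, every TAPE called for KCl, and the 3 genes closest by r. Promoter sequences were read from RefSeq (GRCr8). Alternatives were other pseudocounts, filters and scalings, voom on TAPE reads, a replicate block and leaving out each library. Python 3.11.15, numpy 2.4.6, pandas 2.3.3, scipy 1.17.1, numba 0.67.0 and matplotlib 3.10.9 were used.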

Additional observations from a re-analysis of the deposited data

Results flagged for a closer look

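The KCl effect differed between cortex, hippocampus and striatum for 7 genes, by the limma voom F-test of the interaction over all genes. The adjusted p was 1.12e-10 for Ier2, 6.60e-10 for Btg2, 4.59e-07 for Crem, 4.13e-06 for Nfil3, 2.60e-05 for Gadd45b, 0.00414 for Maff and 0.0143 for Per1. By point estimate the effect was highest in cortex for Ier2, Btg2, Crem, Gadd45b, Maff and Per1 and in hippocampus for Nfil3, and each was positive in every region. Cortex and striatum were not called different for Btg2 and Per1, nor cortex and hippocampus for Maff.

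The 4 striatum vehicle libraries were examined for an outlier in 36 measures (gene levels, TAPE levels and summed TAPE reads). In 2 measures a library lay far from the other 3, where chance gives such a library in about 1 measure in 20 for normally spread values. The 2 of 36 are close to that rate. The measures come from the same libraries and are not independent, so this rate is a rough guide. The TAPE shared by Nfil3 and Gadd45g (17:12514997-12516636) had reads in a single striatum vehicle library, with 2 reads there and 0 in the other 3. The gap thus took the whole range (ratio of 1) whatever its size, and the rate does not apply to it. The summed TAPE reads near Ier5 in striatum vehicle libraries had a ratio of gap to range of 0.891.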

How the results depend on the processing

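The 30 log2 changes of the genes kept direction and call in 300 of 300 values under other scalings, no filter, no precision weights, the replicate block and leaving out libraries, as did the permutation results in 210 of 210. Left-out libraries gave 6 to 8 genes whose effect differed between regions, 9 called in cortex and 10 in hippocampus, in striatum and over all regions. For TAPEs, 384 of 422 values were unchanged, 27 lost and 3 gained a call. The hippocampal count of TAPEs rose to 1 (Ier5, 13:72856835-72858270, adjusted p 0.0362 and 0.0303) with a mean CPKM of at least 0.1 and in a single fit of 6 groups. Without a filter the counts were 0 in striatum, 0 over the 3 regions and 26 of 338 for region dependence, which was 8 of 17 at 0.1. Left-out libraries gave 0 in cortex, hippocampus, striatum and the interaction, 4 to 7 over the regions, 11 to 15 for region dependence and 3 to 4 for summed TAPE reads.

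Values near 0 changed sign and were uncalled throughout. The log2 change of the nearest Btg2 TAPE went to -0.0532 at a pseudocount of 0.01, and with single libraries left out it ran from -0.019 to 0.221 (below 0 without cortex KCl 3 or striatum KCl 7). That of Atf3 ran from -0.0598 to 0.121 (below 0 without cortex vehicle 1, cortex KCl 3 or hippocampus KCl 1) and that of Crem from -0.00610 to 0.270 (below 0 without hippocampus KCl 1). That of Per1 was 0.00695 when libraries were centred. As sums over regions of standardised differences, summed TAPE reads of Crem ran from -0.104 to 1.18 (below 0 without cortex vehicle 1 or 2, hippocampus KCl 1 or striatum KCl 7) and those of Ier2 from -0.226 to 0.858 (below 0 without striatum KCl 7). Those of Atf3 gave 0.0347 as shares of TAPE reads. A further TAPE paired with Maff (7:120338984-120340471, adjusted p 0.0517) passed with voom (0.0229) and without any 1 of 7 libraries, and the Gadd45b TAPE 759143 bp upstream passed when centred (0.0394), with voom (0.0407) and without hippocampus KCl 2 (0.0454). As shares of TAPE reads 889 genes were called for summed TAPE reads, against 3393. Summed TAPE reads of Per1 passed without hippocampus KCl 1 (adjusted p 0.0264) or striatum vehicle 2 (0.0445), of Btg2 without striatum vehicle 6 (0.0474) and of Ier5 without cortex vehicle 2 (0.0246) or hippocampus vehicle 1 (0.0448).

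Replicate numbers are shared by vehicle and KCl in cortex and hippocampus only. Same-numbered libraries did not deviate together (r of -0.09 to 0.04), beside -0.08 to 0.12 for differently numbered ones. A small effect shared by libraries of the same number would not be seen by this check. With the replicate block the members called were 9 in cortex, 10 in hippocampus, 7 for the interaction, 6 TAPEs over the regions and 3 summed loci, and the count of all genes called in hippocampus was 1034, against 1535. Without cortex vehicle replicate 3 the interaction was called for 762 genes, against 484. No paired analysis was possible in striatum because the groups share no number. Most TAPEs are too shallow for a test, so a count of 0 calls reflects what this depth can show.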
